A study of Mus musculus with 6 samples.

Results

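Microtubules are polymers of alpha- and beta-tubulin, and 9 mouse genes for these subunits were followed library by library in injured kidneys. They are 4 alpha-tubulin genes (Tuba1a, Tuba1b, Tuba1c and Tuba4a) and 5 beta-tubulin genes (Tubb2a, Tubb2b, Tubb4b, Tubb5 and Tubb6). They were chosen by symbol from a table of 56747 gene rows, each symbol stood on 1 row, and all 9 passed the filter on low counts that left 17557 genes. RNA came from whole kidneys of males of C57BL/6J, a common inbred strain, with wild-type genotype. Each group had 6 animals per the design text and 3 libraries here, and the labels do not tie libraries to animals. All mice had 30 min of ischemia, in which the blood supply of the kidney is stopped, and 24 h of reperfusion. The saline group was given saline by mouth per the design text, where the sample labels say that there was no treatment. The tacrolimus group was dosed by mouth with tacrolimus, an inhibitor of the phosphatase calcineurin used against transplant rejection, at 1 mg/kg per day for 1 day. For saline the ischemia is described as partial, for tacrolimus as occlusion of the renal arteries, and any difference in surgery and the drug cannot be told apart. No uninjured kidney is among the 6 libraries, and age is not given in the labels.

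As background, an alpha and a beta subunit join into a dimer, and dimers polymerise into the tracks along which kinesins and dynein carry cargo. The isotypes differ mostly in the acidic tail at the end of the protein, where enzymes add or remove glutamate and tyrosine. Cells also adjust the amount of tubulin mRNA: when free dimers are abundant, the protein TTC5, studied in human cells, binds the first residues of nascent tubulin at the ribosome and the mRNA is degraded. In proximal tubule cells, microtubules help to bring membrane proteins to the apical surface, and ischemia is known from rat kidney to disturb them.

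The start of the coding sequence is shown because it encodes the residues that TTC5 reads. For 8 of the 9 genes (Tubb6 is not shown), the start codon is in lower case and the next 3 codons are in capitals, from GENCODE M21 transcripts (GRCm38).
Tuba1a: atgCGTGAGTGC
Tuba1b: atgCGTGAGTGC
Tuba1c: atgCGTGAGTGC
Tuba4a: atgCGCGAGTGC
Tubb2a: atgCGCGAGATC
Tubb2b: atgCGAGAGATC
Tubb4b: atgAGGGAGATC
Tubb5: atgAGGGAAATC
The 4 alpha genes share the last of these codons (TGC, cysteine), and the beta genes shown share another (ATC, isoleucine).

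The last codons are shown because they encode the tail by which isotypes differ. These are the last 45 coding bases and the stop codon of 6 genes, with the last codon before the stop in capitals.
Tuba1c: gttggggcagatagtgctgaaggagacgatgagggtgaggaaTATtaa
Tuba4a: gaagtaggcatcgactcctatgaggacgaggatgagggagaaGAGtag
Tubb2a: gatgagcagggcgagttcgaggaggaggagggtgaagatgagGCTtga
Tubb2b: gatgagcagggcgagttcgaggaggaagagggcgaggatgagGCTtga
Tubb4b: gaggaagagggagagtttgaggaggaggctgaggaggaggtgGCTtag
Tubb5: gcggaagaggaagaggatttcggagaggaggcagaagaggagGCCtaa
Tuba1c ends on a tyrosine codon (TAT), the residue that the detyrosination cycle removes and restores. Tuba4a ends on a glutamate codon (GAG), so its product is made without that tyrosine.

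The libraries held 38443534 to 44476844 gene-level counts, of which the 9 genes took 0.0668% to 0.185%. Levels are given as CPM, the counts per 1e6 library counts after TMM scaling, or as FPKM, the authors' deposited unit that also divides by gene length. Values come in the order of replicates 1, 2 and 3. Single-library counts of the 9 genes ran from 369 to 19545. Nothing says that the libraries are separate animals. Every p-value therefore sets the group difference only against the spread of these libraries, which may be technical. As a check for kidney tissue, which cannot tell whole kidney from a part, 8 proximal tubule markers were looked up and all were detected. They summed to 7326, 8095 and 7717 CPM with tacrolimus and to 6968, 2603 and 1803 CPM with saline. Saline replicate 1 was nearer to the tacrolimus libraries than to its own group: the root-mean-square log2 difference over all tested genes was 0.592 to 0.612 from those, 0.867 from saline replicate 2 and 1.04 from saline replicate 3. Saline replicates 2 and 3 were 0.817 apart, and the tacrolimus libraries were 0.576 to 0.613 apart. Results are also given without saline replicate 1. Leaving out a library because it resembles the other group favours more calls, so those results are description only.

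All 9 tubulin genes had a lower mean level in the tacrolimus kidneys, with Tubb2a furthest from the saline mean and Tuba4a nearest. None of these differences passed the test over all genes. The median log2 ratio of the 9 genes, tacrolimus over saline, was -0.78, and that of all genes tested was -0.01. The log2 ratio was below 0 in 9 of 9, beside 50.7% of all genes, and 6.73% of all genes had a ratio at or under the median of the 9. In 6 of 9 genes every tacrolimus library lay below every saline library, beside 11.0% of all genes (21.8% with groups apart in either direction). By edgeR's quasi-likelihood test with Benjamini-Hochberg adjustment, 0 of 9 had an adjusted p under 0.05, beside 0.0114% of all genes. The adjusted p was 0.392 for each of 7 genes, 0.401 for Tubb6 and 0.579 for Tuba4a by edgeR. At an unadjusted p under 0.05 there were 7 of 9, all lower with tacrolimus, beside 7.72% of all genes lower and 12.7% in either direction. In bulk RNA, fewer cells of a type and less RNA per cell cannot be told apart.

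**Figure D1:**
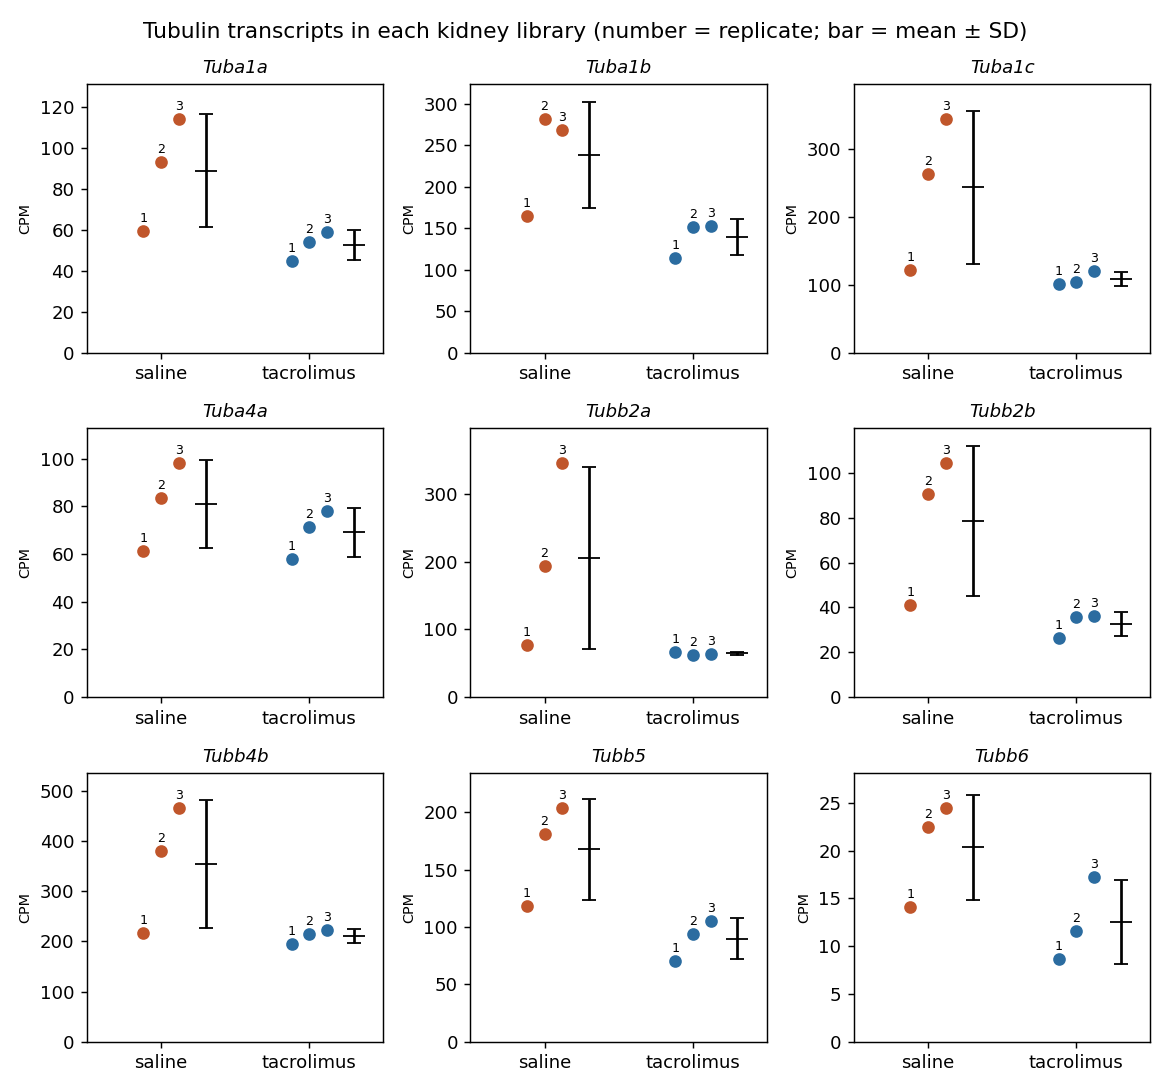
CPM of each tubulin gene in each library, with the replicate number beside each point and the group mean ± SD as a bar (n = 3); each panel has its own axis. In all 9 panels saline replicates 2 and 3 are the highest points and saline replicate 1 is the lowest saline point. The share of all genes with this order was not counted.

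Among the alpha-tubulin genes, Tuba1b, a widely expressed alpha isotype, stood at 165, 282 and 269 CPM with saline and at 114, 151 and 153 CPM with tacrolimus. The log2 ratio was -0.78 ± 0.24 (SE). The groups did not overlap, but saline replicate 1 was nearer to the highest tacrolimus library than to the other saline libraries.

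Tuba1c, a close relative of Tuba1b, stood at 122, 263 and 344 CPM with saline and at 101, 105 and 120 CPM with tacrolimus. Its log2 ratio of -1.16 ± 0.35 (SE) was the furthest from 0 among the alpha genes. The groups were barely apart, between saline replicate 1 and tacrolimus replicate 3.

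Tuba1a, best known as an alpha-tubulin of developing neurons, stood at 59.2, 93.1 and 114 CPM with saline and at 44.5, 54.2 and 59.0 CPM with tacrolimus. Its log2 ratio was -0.76 ± 0.25 (SE). Here too saline replicate 1 almost touched the highest tacrolimus library.

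Tuba4a, whose last codon is for glutamate, stood at 61.3, 83.4 and 98.1 CPM with saline and at 57.9, 71.3 and 78.1 CPM with tacrolimus. Its log2 ratio of -0.23 ± 0.20 (SE) was the nearest to 0 of the 9. The groups overlapped, since saline replicate 1 lay below tacrolimus replicates 2 and 3.

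Among the beta-tubulin genes, Tubb2a, a beta isotype abundant in brain, stood at 76.3, 194 and 345 CPM with saline and at 66.6, 62.5 and 64.1 CPM with tacrolimus. Its log2 ratio of -1.67 ± 0.49 (SE) was the furthest from 0 of the 9. The tacrolimus libraries were tight (64.4 ± 2.07 CPM) and the saline libraries spread widely (205 ± 135 CPM; SD, n = 3 each), and the groups did not overlap. Saline replicate 3 carried much of the size: without it the log2 ratio was -1.07.

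Tubb2b, the neighbour of Tubb2a on chromosome 13 and best known from the developing brain, stood at 40.9, 90.7 and 104 CPM with saline and at 26.3, 35.6 and 36.0 CPM with tacrolimus. Its log2 ratio was -1.27 ± 0.35 (SE). The groups did not overlap.

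Tubb5, a broadly expressed beta-tubulin, stood at 118, 181 and 204 CPM with saline and at 70.3, 93.4 and 105 CPM with tacrolimus. Its log2 ratio was -0.90 ± 0.24 (SE). The groups did not overlap, and tacrolimus replicate 1 was well below the other tacrolimus libraries.

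Tubb4b, a beta-tubulin of many tissues that is also used in cilia, stood at 216, 380 and 467 CPM with saline and at 194, 216 and 223 CPM with tacrolimus, a log2 ratio of -0.75 ± 0.28 (SE). Saline replicate 1 lay within the tacrolimus range. Tubb6, a beta isotype with a divergent tail, had the fewest counts, at 14.1, 22.5 and 24.5 CPM with saline and 8.68, 11.6 and 17.3 CPM with tacrolimus, a log2 ratio of -0.70 ± 0.31 (SE). Its saline replicate 1 lay below tacrolimus replicate 3.

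The libraries came in much the same order in every gene. Saline replicate 1 was the lowest saline library in 9 of 9 genes, and saline replicates 2 and 3 were above all other libraries in 9 of 9. The share of all genes with these orders was not counted. Saline replicates 2 and 3 also stood apart over all tested genes. Their root-mean-square log2 difference was 0.867 and 1.04 from saline replicate 1, and 0.916 to 1.12 from the tacrolimus libraries. Saline replicate 3 was the highest of the 6 libraries in 8 of 9, the exception being Tuba1b, beside 28.8% of all genes. Tacrolimus replicate 1 was the lowest of the 6 in 8 of 9, the exception being Tubb2a, beside 15.4% of all genes.

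With saline replicate 1 left out, edgeR called 7 of the 9 genes lower with tacrolimus, beside 6.16% of 18081 genes called lower and 14.0% called in either direction. Tuba4a (adjusted p = 0.150) and Tubb6 (adjusted p = 0.0866, edgeR) were not called. With any other single library left out, 0 of 9 were called, beside 0.00552% of genes without tacrolimus replicate 1, tacrolimus replicate 3 or saline replicate 2, 0.00555% without saline replicate 3 and 0% without tacrolimus replicate 2. On all 6 libraries DESeq2 called 2 of 9, Tubb2a (adjusted p = 0.0272) and Tubb2b (adjusted p = 0.0324), both lower, beside 1.33% of all genes called lower and 1.96% called in either direction. Limma on log2(FPKM + 0.1) or log2(FPKM + 1) called 0 of 9, beside 0.00570% of all genes, and so did edgeR with replicate number as a block (0.00570%) or with no filter on low counts (0.00715%).

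**Figure D2:**
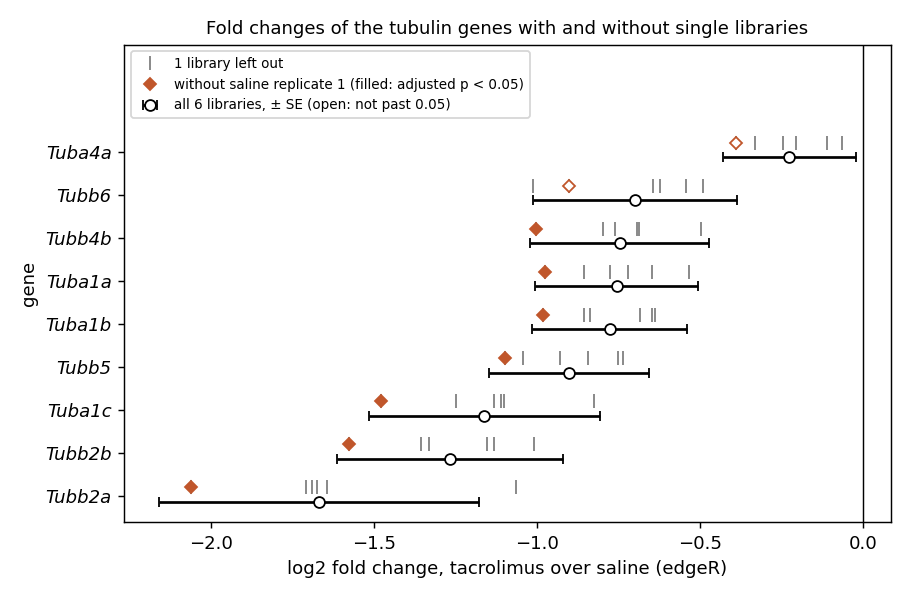
Log2 fold change of each tubulin gene, tacrolimus over saline, by edgeR, with all 6 libraries (± SE) and with single libraries left out. All values lie below 0, from Tubb2a at -1.67 to Tuba4a at -0.23 with all libraries. Without saline replicate 1 the adjusted p was under 0.05 in 7 of 9 genes, all lower. Of all 18081 genes in that fit, 6.16% were called lower and 14.0% in either direction, and its calls are description only.

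Levels of different genes can be set side by side in FPKM, though the ranks depend on the gene length used. The lengths that the deposited FPKM imply, scaled to the median gene, were 0.80 (Tuba1a and Tubb2a) to 1.11 (Tubb6) times the deposited gene length. With tacrolimus, Tubb4b was highest at 101 ± 7.28 FPKM, then came Tuba1b at 74.4 ± 11.8, Tuba1c at 47.7 ± 4.54 and Tubb2a at 40.1 ± 1.25 FPKM, with no overlap between neighbours. Tuba1a at 29.2 ± 4.15, Tubb5 at 27.0 ± 5.39, Tuba4a at 18.7 ± 2.81 and Tubb2b at 14.3 ± 2.42 FPKM followed, and each overlapped with the next. Tubb6 was lowest at 5.16 ± 1.81 FPKM (SD, n = 3 each). With saline, the 4 most abundant genes overlapped, with Tubb4b at 169 ± 60.0, Tuba1b at 127 ± 33.7, Tubb2a at 127 ± 82.6 and Tuba1c at 106 ± 48.5 FPKM. Below them Tubb5 stood at 50.1 ± 13.0, Tuba1a at 49.0 ± 15.1, Tubb2b at 34.1 ± 14.4, Tuba4a at 21.8 ± 4.88 and Tubb6 at 8.32 ± 2.21 FPKM, and only Tubb6 was clear of its neighbour.

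The 4 alpha genes summed to 191, 339 and 380 FPKM with saline and to 146, 176 and 189 FPKM with tacrolimus. The 5 beta genes summed to 210, 404 and 549 FPKM with saline and to 171, 191 and 202 FPKM with tacrolimus. In both sums saline replicate 1 lay just above the highest tacrolimus library. The alpha sum divided by the beta sum was 0.909, 0.839 and 0.692 with saline and 0.852, 0.922 and 0.935 with tacrolimus, so that the groups overlapped.

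The make-up of each sum differed between libraries too. Tubb4b held 49.2%, 44.9% and 40.3% of the beta sum with saline and 54.5%, 54.2% and 53.1% with tacrolimus, a larger share in every tacrolimus library, although its mean level there was lower. Tubb2a held 22.6%, 29.7% and 38.6% with saline and 24.3%, 20.4% and 19.8% with tacrolimus, and here saline replicate 1 lay within the tacrolimus range. Tubb2b held 8.49%, 9.76% and 8.20% with saline and 6.72%, 8.14% and 7.82% with tacrolimus, groups that were just apart. Of the alpha sum, Tuba4a held 8.67%, 6.63% and 6.91% with saline and 10.8%, 10.97% and 11.2% with tacrolimus, without overlap. Tuba1c held 28.0%, 33.9% and 39.2% with saline and 30.5%, 26.0% and 28.0% with tacrolimus, with overlap. Shares within a sum depend on each other, and their differences were not tested. CPM divided by the deposited gene length kept the same 3 genes (Tubb4b, Tuba4a and Tubb2b) without overlap.

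**Figure D3:**
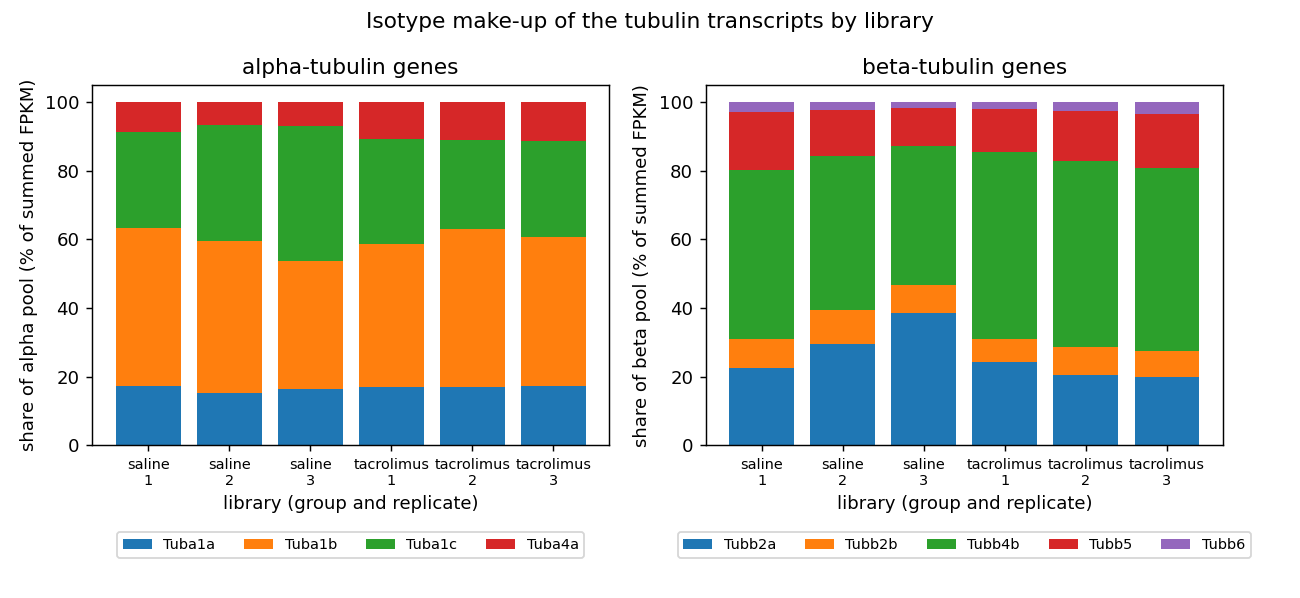
Share of each gene in the summed FPKM of the alpha-tubulin genes and of the beta-tubulin genes, in percent, for each library. The Tubb4b share is 53.1% to 54.5% in the tacrolimus libraries and 40.3% to 49.2% in the saline libraries, and the Tubb2a share is largest in saline replicate 3 at 38.6%.

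Several of these genes are near-identical copies, between which the authors' counting could have split reads, so their separate values are uncertain. In GENCODE M21 the coding sequences of Tuba1a and Tuba1b were 98.3% identical and those of Tuba1b and Tuba1c 98.4%, and the transcripts of the latter pair shared an exact run of 468 bases. Tubb2a and Tubb2b were 96.5% identical, with an exact shared run of 551 bases. Tuba4a was 85.3% to 85.6% identical to the other alpha genes, with no exact shared run over 29 bases. In the deposited table (GRCm39) the copies lie near each other, with Tuba1b at chr15:98829306-98832446, Tuba1a at chr15:98847718-98851584 and Tuba1c at chr15:98927772-98935991. Tubb2a lies at chr13:34258257-34261990 and Tubb2b at chr13:34310731-34314449. The others are spread out, with Tuba4a at chr1:75190872-75196509, Tubb4b at chr2:25112172-25114714, Tubb5 at chr17:36144813-36149198 and Tubb6 on chromosome 18.

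Sums over the copies do not depend on how reads were split among them. They still depend on reads that were left uncounted or given to other gene models. Tuba1a, Tuba1b and Tuba1c together stood at 346, 639 and 727 CPM with saline and at 260, 310 and 332 CPM with tacrolimus, a log2 ratio of -0.93 ± 0.28 (SE; edgeR adjusted p = 0.392). Tubb2a and Tubb2b together stood at 117, 284 and 449 CPM with saline and at 92.9, 98.1 and 100.1 CPM with tacrolimus, a log2 ratio of -1.55 ± 0.44 (SE; edgeR adjusted p = 0.392). The groups did not overlap in either sum.

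Other gene models can share reads with these genes. Gm49450, a predicted gene on the same strand that overlaps both Tuba1a and Tuba1b, had 681, 1308 and 848 counts with saline and 180, 259 and 411 with tacrolimus. Stk16, a kinase gene on the opposite strand, overlaps Tuba4a by 1379 bases and had 1674, 1227 and 836 counts with saline and 1650, 1731 and 1744 with tacrolimus. Whether the counting used strand is not given in the sources used here, so reads in that overlap cannot be told apart. The pseudogene Tubb4b-ps1, named outside the rule for named genes, had 475, 671 and 895 counts with saline and 370, 365 and 388 with tacrolimus, in the same order of groups as Tubb4b. Tuba1c, Tubb2a, Tubb2b, Tubb5 and Tubb6 had no overlapping model in the table.

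Promoter sequence is shown for Tubb2a, with the largest difference, and for Tubb4b, whose share of the beta sum was larger with tacrolimus. RefSeq (GRCm38.p6) gave a promoter for 7 of the 9 genes, and Tubb2b and Tubb6 were not matched. The 250 bases before the start site follow, with capitals for matches on either strand to the CCAAT box (CCAAT), the GC box (GGGCGG), the AP-1 site (TGANTCA), the cyclic AMP response element (TGACGTCA) and the TATA box (TATAAA). The cyclic AMP response element was added after the sequences had been read.
Tubb2a, chr13:34078009-34078258, minus strand: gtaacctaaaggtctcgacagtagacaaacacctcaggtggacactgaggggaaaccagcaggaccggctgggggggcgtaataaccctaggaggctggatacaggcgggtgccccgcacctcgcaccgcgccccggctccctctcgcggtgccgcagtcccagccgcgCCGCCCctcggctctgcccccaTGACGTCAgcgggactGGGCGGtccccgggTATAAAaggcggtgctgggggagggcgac
Tubb4b, chr2:25224703-25224952, minus strand: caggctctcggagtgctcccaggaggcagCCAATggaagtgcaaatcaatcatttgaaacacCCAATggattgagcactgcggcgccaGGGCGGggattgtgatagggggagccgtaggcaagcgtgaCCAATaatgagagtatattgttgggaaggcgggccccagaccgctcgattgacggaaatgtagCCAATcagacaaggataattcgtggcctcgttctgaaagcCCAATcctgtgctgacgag
The Tubb2a promoter held 1 cyclic AMP response element, 59 bases before the start site, which 1.5% of 32851 promoters held. It also held a TATA box, as did 12.4% of promoters, and 2 GC boxes, of which 32.7% held at least 1. The Tubb4b promoter held 5 CCAAT boxes, where 33.8% of promoters held at least 1. Tubb5 held 2 CCAAT boxes, Tuba1a and Tuba1c 1 each, and Tuba1b, Tuba4a and Tubb2a none in this window. The AP-1 letters were in none of the 7 windows and in 6.7% of promoters. A match describes letters, not binding.

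Of 11 other tubulin genes, 7 were tested (median log2 ratio -0.09), and 0 of 7 were called by edgeR. At an unadjusted p under 0.05 there were 0 (beside 12.7% of all genes), and DESeq2 called 0 (beside 1.96%). Tubg1, the gamma-tubulin that nucleates microtubules, stood at 22.8, 27.9 and 21.5 CPM with saline and at 21.9, 21.6 and 24.4 CPM with tacrolimus. Tubd1, the delta-tubulin of centrioles, stood at 4.43, 4.12 and 2.36 CPM with saline and at 3.41, 4.44 and 4.05 CPM with tacrolimus. The groups of both overlapped, as did those of the alpha isotype gene Tuba8, at 1.53, 1.70 and 1.17 CPM with saline and 2.52, 2.09 and 1.40 CPM with tacrolimus. Tubg2, another gamma-tubulin, was at 0.617 ± 0.139 CPM with saline and 0.520 ± 0.146 CPM with tacrolimus (SD, n = 3 each). Tuba3a, Tuba3b and Tubal3 had 0 counts in all libraries.

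Of 22 genes that fold tubulin (the CCT chaperonin, prefoldin and the tubulin cofactors), 19 had a lower and 3 a higher mean with tacrolimus (median log2 ratio -0.20). By edgeR 0 of 22 were called, and DESeq2 called 0 (beside 1.96% of all genes). At an unadjusted p under 0.05 there were 4, all lower, beside 7.72% of all genes lower. In 9 of 22 all tacrolimus libraries were below all saline libraries, beside 11.0% of all genes. The CCT subunit gene Cct7 stood at 135, 159 and 162 CPM with saline and at 114, 124 and 110 CPM with tacrolimus, without overlap (log2 ratio -0.39 ± 0.12 SE; edgeR adjusted p = 0.392). Cct3, for another CCT subunit, stood at 138, 183 and 145 CPM with saline and at 112, 119 and 114 CPM with tacrolimus, also without overlap. Arl2, a small GTPase that works with the cofactors, was at 29.3 ± 2.37 CPM with saline and 23.9 ± 1.21 CPM with tacrolimus, and the cofactor gene Tbca at 77.2 ± 8.30 and 62.2 ± 5.77 CPM (SD, n = 3 each). Without saline replicate 1, 5 of 22 were called, all lower, among them Cct7 (edgeR adjusted p = 0.0350). Of all genes 6.16% were then called lower and 14.0% in either direction.

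Of 12 genes for tubulin mRNA decay (TTC5, SCAPER and the CCR4-NOT deadenylase), 7 had a lower and 5 a higher mean with tacrolimus (median log2 ratio -0.05). None of the 12 was called by edgeR with all libraries or without saline replicate 1. With all libraries 0 had an unadjusted p under 0.05 (beside 12.7% of all genes), and DESeq2 called 0 (beside 1.96%). Ttc5 stood at 17.6, 17.5 and 24.8 CPM with saline and at 16.8, 17.7 and 17.7 CPM with tacrolimus, so that only saline replicate 3 stood apart. Scaper, whose product links TTC5 to the deadenylase, was at 16.2 ± 0.894 CPM with saline and 15.7 ± 1.21 CPM with tacrolimus. The scaffold gene Cnot1 was at 113 ± 22.3 and 132 ± 4.03 CPM, the subunit gene Cnot3 at 26.9 ± 3.16 and 23.3 ± 1.02 CPM, and the deadenylase gene Cnot7 at 37.8 ± 10.4 and 45.4 ± 1.604 CPM, saline first (SD, n = 3 each).

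Of 20 tested genes for enzymes that modify tubulin, 11 had a lower and 9 a higher mean (median log2 ratio -0.05). By edgeR 0 were called, 2 had an unadjusted p under 0.05 (beside 12.7% of all genes), and DESeq2 called 0 (beside 1.96%). Hdac6, the deacetylase of alpha-tubulin, stood at 63.7, 77.4 and 86.9 CPM with saline and at 55.0, 57.3 and 63.8 CPM with tacrolimus (log2 ratio -0.37 ± 0.15 SE; edgeR adjusted p = 0.393). Svbp, the partner of the vasohibins that remove the terminal tyrosine, stood at 9.06, 12.7 and 15.9 CPM with saline and at 8.44, 8.54 and 9.33 CPM with tacrolimus. In both, saline replicate 1 lay within the tacrolimus range. Ttl, the ligase that restores the tyrosine, was at 20.2 ± 1.73 CPM with saline and 17.6 ± 2.05 CPM with tacrolimus, the vasohibin gene Vash1 at 0.961 ± 0.512 and 1.33 ± 0.512 CPM, and the acetyltransferase gene Atat1 at 8.93 ± 1.52 and 10.1 ± 1.70 CPM (SD, n = 3 each). Agbl2, a carboxypeptidase gene, had only 6 to 30 counts a library, at 0.222 ± 0.0800 CPM with saline and 0.630 ± 0.0825 CPM with tacrolimus (SD, n = 3 each; edgeR adjusted p = 0.392). Without saline replicate 1, 2 of 20 were called, both lower: Hdac6 (adjusted p = 0.0458) and Svbp (adjusted p = 0.0412, edgeR). Of all genes 6.16% were then called lower and 14.0% in either direction.

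Of 42 tested genes for proteins that bind microtubules or set their dynamics, 26 had a higher and 16 a lower mean (median log2 ratio 0.13). By edgeR 0 were called, 7 had an unadjusted p under 0.05 (beside 12.7% of all genes), and DESeq2 called 1, Mapt (beside 1.96%). Mapt, which encodes tau, stood at 42.2, 87.2 and 40.0 CPM with saline and at 117, 128 and 123 CPM with tacrolimus (log2 ratio 1.12 ± 0.31 SE; edgeR adjusted p = 0.392). The groups did not overlap, and saline replicate 1 stood with saline replicate 3 here. Stmn1, for stathmin, which sequesters free dimers, stood at 24.8, 31.5 and 26.3 CPM with saline and at 19.3, 17.0 and 21.8 CPM with tacrolimus, without overlap (log2 ratio -0.51 ± 0.15 SE; edgeR adjusted p = 0.392). Map4, for a widespread microtubule-binding protein, was at 86.7 ± 4.76 CPM with saline and 72.1 ± 7.95 CPM with tacrolimus, and Eml1, for another, at 12.8 ± 0.797 and 16.8 ± 0.972 CPM (SD, n = 3 each). Without saline replicate 1, 3 of 42 were called higher and 1 lower, beside 14.0% of all genes in either direction, with neither Mapt (adjusted p = 0.101) nor Stmn1 (adjusted p = 0.0595, edgeR) among them.

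The 14 genes of the gamma-tubulin ring complex and centrosome had a median log2 ratio of -0.06, with 6 higher and 8 lower. By edgeR 0 were called, 2 had an unadjusted p under 0.05 (beside 12.7% of all genes), and DESeq2 called 0 (beside 1.96%). The centrosome gene Cep192 was at 15.1 ± 2.27 CPM with saline and 10.8 ± 0.834 CPM with tacrolimus, Nedd1, which recruits the ring complex, at 26.1 ± 7.32 and 17.6 ± 2.41 CPM, and Pcnt, for pericentrin, at 24.8 ± 5.10 and 31.9 ± 1.33 CPM (SD, n = 3 each). The 28 tested genes for transport kinesins, dynein and dynactin had a median of 0.07, with 18 higher and 10 lower. Of these, edgeR called 0, 3 had an unadjusted p under 0.05 (beside 12.7% of all genes), and DESeq2 called 0 (beside 1.96%). The dynein light chain gene Dynll2 was at 185 ± 27.9 CPM with saline and 242 ± 3.53 CPM with tacrolimus, the dynactin gene Dctn4 at 55.6 ± 5.54 and 45.04 ± 2.49 CPM, and the kinesin-2 gene Kif3b at 40.5 ± 5.71 and 51.0 ± 3.13 CPM (SD, n = 3 each). Without saline replicate 1, 2 of 14 were called higher and 2 lower, beside 14.0% of all genes in either direction. Of the 28 transport genes 1 was then called higher, beside 1420 of 18081 genes called higher.

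**Figure D4:**
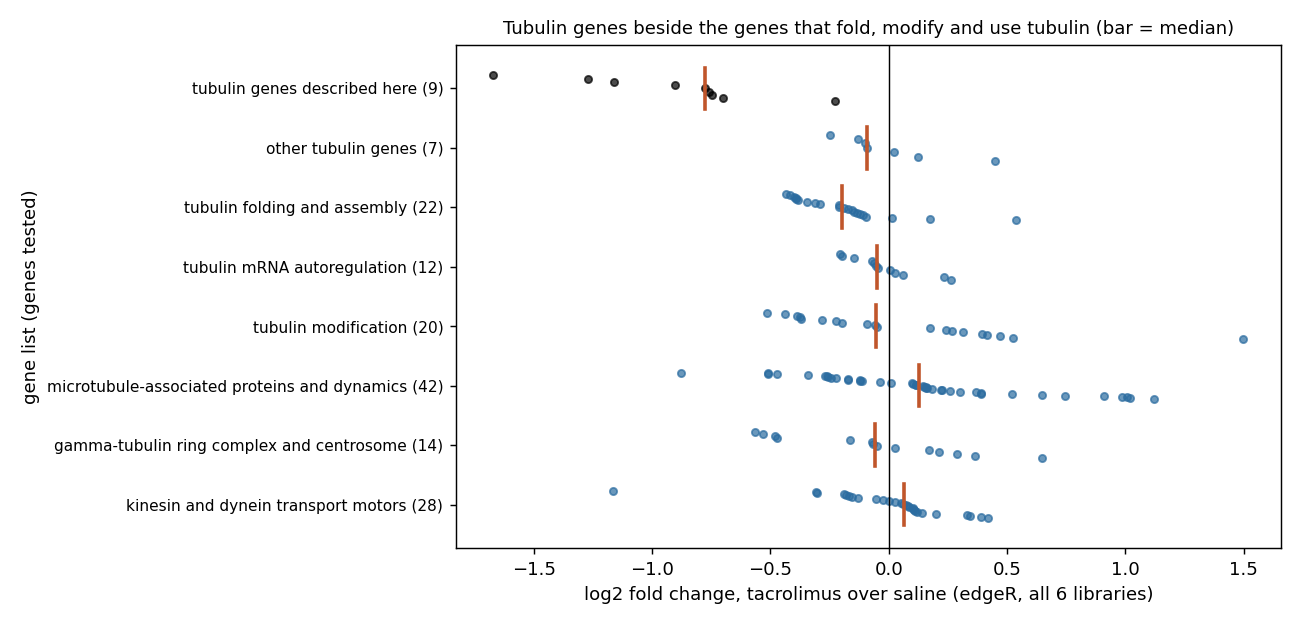
Log2 fold change, tacrolimus over saline, of each tested gene of the 9 tubulin genes and of 7 lists of related genes, with the median of each list. The 9 tubulin genes have a median of -0.78, and the medians of the other lists lie between -0.20 and 0.13.

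The genes whose profile over the 6 libraries was nearest to the mean profile of the 9 tubulin genes were Ywhah, Pgm2, Pea15a, Ctsd and Tmem43. Nearness was the root-mean-square difference in log2 CPM, each gene centred on its own mean, among 9294 other genes of at least 10 CPM on average. That difference was 0.05 for Ywhah (a 14-3-3 protein), 0.07 for Pgm2 (a sugar phosphate mutase), 0.08 for Pea15a (a phosphoprotein that binds ERK), 0.08 for Ctsd (the lysosomal protease cathepsin D) and 0.08 for Tmem43 (an inner nuclear membrane protein). The tubulin genes themselves lay 0.09 (Tuba1a) to 0.44 (Tubb2a) from their mean profile. Ywhah stood at 106, 195 and 226 CPM with saline and at 72.9, 93.6 and 101 CPM with tacrolimus, with saline replicate 1 just above the tacrolimus libraries.

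Markers of injured tubules followed a like order of libraries. All 10 had a lower mean with tacrolimus (median log2 ratio -2.01). By edgeR 0 were called, 8 had an unadjusted p under 0.05 (beside 7.72% of all genes lower), DESeq2 called 7 (beside 1.33%), and edgeR without saline replicate 1 called 8 (beside 6.16%), all lower. They summed to 7884, 31349 and 31004 CPM with saline and to 2638, 3514 and 7793 CPM with tacrolimus. Havcr1, for the injury marker KIM-1, stood at 268, 1598 and 1081 CPM with saline and at 14.95, 57.7 and 118 CPM with tacrolimus, and Lcn2, for NGAL, at 77.1, 517 and 2600.5 CPM and at 47.4, 31.4 and 72.2 CPM. The 5 neutrophil markers, also all lower with tacrolimus (0 called by edgeR, 5 at an unadjusted p under 0.05, 4 by DESeq2, 4 by edgeR without saline replicate 1, beside the same shares of all genes), summed to 9.91, 24.2 and 28.7 CPM with saline and to 5.48, 4.93 and 3.27 CPM with tacrolimus. The part of either in the tubulin result was not tested.

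Other marker sums differed in how saline replicates 2 and 3, where the tubulin genes were highest, stood to the remaining libraries. The proximal tubule, dividing cell, leukocyte, fibroblast and pericyte, endothelial and podocyte sums were lower in both than in every other library. The thick ascending limb, collecting duct, multiciliated cell and platelet sums overlapped with the other libraries. The neuron sum was higher in both. The 8 markers of dividing cells summed to 18.6, 5.84 and 4.61 CPM with saline and to 6.14, 10.2 and 10.3 CPM with tacrolimus, with Mki67 at 6.47, 1.02 and 0.812 CPM and at 1.58, 3.80 and 2.79 CPM. The 8 leukocyte markers summed to 112, 70.1 and 63.1 CPM with saline and to 96.2 to 105 CPM with tacrolimus, the 5 fibroblast and pericyte markers to 294, 191 and 158 CPM and to 287 to 376 CPM, and the 5 endothelial markers to 294, 184 and 189 CPM and to 288 to 341 CPM. The 4 podocyte markers summed to 394, 300.0 and 325 CPM with saline and to 351 to 421 CPM with tacrolimus. The 3 thick ascending limb markers summed to 6452, 2581 and 6339 CPM with saline and to 6201 to 8095 CPM with tacrolimus, and the 4 collecting duct markers to 569, 262 and 462 CPM and to 461 to 631 CPM. The 8 neuron markers summed to 3.97, 6.02 and 9.32 CPM with saline and to 3.49 to 3.79 CPM with tacrolimus, with Snap25 and Elavl4 at 0 counts in all libraries. The 5 multiciliated cell markers summed to 1.505 to 3.34 CPM and the 5 platelet markers to 2.91 to 7.38 CPM over the 6 libraries. In these lists and among the proximal tubule markers edgeR called 0 genes with all libraries, and DESeq2 called 1, Slc5a2 (beside 1.96% of all genes). At an unadjusted p under 0.05 (12.7% of all genes) there were 2 of 5 endothelial and 2 of 5 fibroblast and pericyte markers. So were 1 of 8 proximal tubule, 1 of 6 leukocyte, 1 of 3 neuron and 1 of 4 multiciliated cell markers, and 0 of the remaining lists. Without saline replicate 1, edgeR called 1420 of 18081 genes higher and 14.0% of all genes in either direction. Among the markers it then called higher 5 of 8 proximal tubule, 4 of 5 endothelial, 3 of 6 leukocyte and 2 of 5 fibroblast and pericyte markers. Also called higher were 2 of 3 thick ascending limb, 2 of 4 collecting duct and 1 of 3 platelet markers. Called lower were 1 leukocyte and 1 neuron marker (beside 6.16% of all genes), and 0 of the dividing cell, podocyte and multiciliated cell markers were called. Their part in the tubulin result was not tested.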

How the data were processed

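Bulk RNA-seq of whole kidney was measured in 6 libraries, 3 per group, all labelled as a single batch. RNA was extracted with TRIzol or a column kit, per the labels' protocols, which do not say which was used for which library. The authors deposited 1 table with raw gene counts per library and with FPKM values, which are scaled by gene length and library total, per the file headers. The build was GRCm39, per the submitters' processing notes, and for the aligner, the counter and the use of strand the sources used here give nothing. FPKM was deposited per library, with nothing pooled.

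Counts were filtered with filterByExpr (minimum count 10, minimum total 15), scaled by TMM and tested with edgeR 4.0.16 in R 4.3.3 (robust quasi-likelihood test, two-sided, Benjamini-Hochberg over 17557 genes, threshold 0.05). Ratios are tacrolimus over saline. The alternatives were DESeq2 1.42.0, limma 3.58.1 on log2(FPKM + 0.1) or log2(FPKM + 1), other scalings, no filter, non-robust moderation, a replicate block and leaving out each library. The fit was tested on simulated data. With 3 libraries a group, no library was tested for being an outlier.

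The tubulin genes, lists and tests were chosen with earlier results of these data known. Named were all 9 tubulin genes, other tubulins of at least 1 CPM in a group, the 3 smallest p-values of each related list, 13 genes by name and the 5 nearest profiles. Promoters came from RefSeq (GRCm38.p6) and transcripts from GENCODE M21, used for sequence and not for coordinates in the table. Some coding ends are not reported here.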

Additional observations from a re-analysis of the deposited data

How the results depend on the processing

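Of 266 alternative values compared with the reported ones, 226 kept their direction and, where tested, their side of the threshold, and 9 moved past it in the same direction. Of the rest, 27 were counts that moved by over 1.5 times or away from a reported 0, and 4 untested differences in share changed sign. Those were the share of Tuba1b (1.08 points higher with tacrolimus; -0.02 without tacrolimus replicate 2 and -1.54 without saline replicate 3) and of Tubb5 (0.49 points higher; -0.23 without tacrolimus replicate 3 and -0.88 without saline replicate 3), moves smaller than the SD of the saline shares. Genes called by edgeR numbered 2, against 344 with DESeq2, 1 with limma on log2(FPKM + 0.1), 1 with limma on log2(FPKM + 1) and 0 to 2534 when a library was left out, the highest without saline replicate 1. Of the 9 tubulin genes, 0 were called by edgeR, 2 by DESeq2 (Tubb2a at -1.67 and Tubb2b at -1.27 on the log2 scale) and 0 to 7 when a library was left out. Over the libraries left out, the log2 ratio ran from -0.98 to -0.53 for Tuba1a, -0.98 to -0.64 for Tuba1b, -1.48 to -0.83 for Tuba1c, -2.06 to -1.07 for Tubb2a, -1.58 to -1.01 for Tubb2b, -1.003 to -0.50 for Tubb4b, -1.10 to -0.74 for Tubb5, -1.01 to -0.49 for Tubb6 and -0.39 to -0.06 for Tuba4a. The lowest value was without saline replicate 1, except for Tubb6, which was at -1.01 without tacrolimus replicate 3 and at -0.90 without saline replicate 1. Tubb2a was at -1.07 and Tuba4a at -0.06 without saline replicate 3. The cause was not tested. With a replicate block 1 gene was called in all and 0 of the 9 tubulin genes. Same-numbered libraries did not deviate together (correlations -0.02, -0.01 and -0.05), so the numbers were not taken to pair them. The sums over near-identical copies and the list counts without saline replicate 1 were chosen after seeing the data. With 3 libraries a group, the common biological coefficient of variation was 0.304, and an effect of depth was not tested.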
